A study of Mus musculus with 6 samples.

Results

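The serum and glucocorticoid regulated kinases (Sgk1, Sgk2 and Sgk3), the kinases Akt1 and Akt2, their upstream activators Pdpk1 and Rictor, and the ubiquitin ligase gene Nedd4l are described here in mouse embryos at the 4-cell stage. The 8 genes were matched by symbol among 46072 genes, and each symbol was found once. The symbols alone select the rows, but the gene set was drawn up with fold changes and adjusted p-values of Son siRNA against control known. The members were thus in part selected on those values. They are therefore given as a description of the genes and are not independent evidence about them.

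The embryos had received siRNA against Son, a nuclear speckle protein gene that acts in pre-mRNA splicing, by microinjection at the zygote stage (3 libraries), or were labelled control (3 libraries). The labels do not give the strain, the control injection, the number of embryos in a library or whether libraries came from separate litters. The p-values therefore measure only the spread between these libraries, which may be technical. Libraries were made with Smart-Seq2, which captures polyadenylated RNA over its length without marking the strand.

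SGK and AKT kinases belong to the AGC family and sit downstream of phosphoinositide 3-kinase (PI3K). Lipids made by PI3K recruit the kinase PDK1, encoded by Pdpk1, which phosphorylates the activation loop of both families. The mTOR complex 2, built around RICTOR, phosphorylates a second site in their hydrophobic motif. SGK1 is regulated strongly at the level of its mRNA, by glucocorticoids, serum and osmotic stress, and phosphorylates NEDD4-2, the product of Nedd4l, which then binds its membrane protein targets less well. PI3K and AKT signalling is known for supporting survival and glucose uptake of the preimplantation embryo.

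A pair of annotated promoter windows of Sgk1 is shown because Sgk1 differed most between the groups and its transcription is known to respond to glucocorticoids. RefSeq lists 6 start sites for Sgk1 on GRCm38.p6, all on the plus strand of chromosome 10. Each window runs from 250 bases before a start site to 50 bases after it. The first, chr10:21993640-21993939, has in capitals a match to the palindromic glucocorticoid response element, searched as AGAACA, any 3 bases and TGTTCT. The second, chr10:21994416-21994715, has in capitals the run TATAAA, the letters of a TATA box.
Sgk1 window with start site 21993890: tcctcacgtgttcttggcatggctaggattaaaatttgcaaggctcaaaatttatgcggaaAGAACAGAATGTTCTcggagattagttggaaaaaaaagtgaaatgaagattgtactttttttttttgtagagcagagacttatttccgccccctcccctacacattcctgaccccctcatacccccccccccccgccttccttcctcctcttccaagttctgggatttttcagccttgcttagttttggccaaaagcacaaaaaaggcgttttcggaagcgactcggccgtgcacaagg
Sgk1 window with start site 21994666: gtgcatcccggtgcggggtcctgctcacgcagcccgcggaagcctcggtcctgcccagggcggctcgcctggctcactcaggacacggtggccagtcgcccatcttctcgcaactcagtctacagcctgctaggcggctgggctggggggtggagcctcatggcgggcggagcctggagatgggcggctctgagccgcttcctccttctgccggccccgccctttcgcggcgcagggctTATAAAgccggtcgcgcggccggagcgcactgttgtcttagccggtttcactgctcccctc
The response element match lies at 21993701 to 21993715, at position -189 from the first of these start sites and 965 bases upstream of the second. On either strand, that motif was found in 3 of 32851 windows of all genes, or 0.00913% of them, and TATAAA in 4473 windows, or 13.6%. The TATAAA shown lies at position -11 from its start site, closer than a TATA box usually sits. TATAAA was also in the Sgk1 window with start site 21992223, at position -28. The windows listed for Akt1 (2), Akt2 (4), Pdpk1 (2) and Rictor (1) held neither run of letters. Counts were deposited per gene, so they do not show which start site these embryos used, and a match is a description of the sequence only.

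Totals ranged from 104634855 to 114892490 units in Son siRNA libraries and from 107996833 to 118865650 units in control libraries. Mitochondrial genes took 13.2% to 17.5% of the units in Son siRNA libraries and 9.79% to 15.98% in control libraries, with the lowest share in control library 2. Son had 31.4 ± 8.48 CPM (counts scaled to the size of the library, with TMM factors) in Son siRNA embryos and 301 ± 45.3 CPM in controls (SD, n = 3 each). All 14 markers of preimplantation embryos passed the filter on low counts, among them Dppa3 with 721 ± 192 CPM in Son siRNA and 650 ± 330 CPM in control libraries, whereas Pou5f1 had only 1.01 ± 0.320 CPM in Son siRNA and 3.55 ± 1.99 CPM in control libraries. The embryo list summed to 2357 to 2794 CPM in Son siRNA and 3276 to 5383 CPM in control libraries, with no overlap. Of its 14 genes, Dppa2 was the 1 called lower by edgeR, 6 had an unadjusted p under 0.05 and DESeq2 called 3 lower. Over all genes tested, edgeR called 0.899% lower and 14.7% had an unadjusted p under 0.05. DESeq2 called 8.99% in either direction, of the genes to which it gave an adjusted p. Of 15 cumulus cell markers, Fshr, Lhcgr, Cyp11a1, Foxl2, Inhba and Inha were at 0 in all 6 libraries. The list summed to 20.5 to 28.1 CPM in Son siRNA and 7.65 to 18.8 CPM in control libraries, mostly from Amhr2 and also with no overlap. The 10 sperm markers summed to 0.151 to 1.14 CPM in Son siRNA and 0.387 to 1.14 CPM in control libraries. The 10 blood markers summed to 17.95 to 21.3 CPM in Son siRNA and 26.4 to 36.9 CPM in control libraries, again with no overlap. Among them Ptprc, Tyrobp, Hbb-bs and Hbb-bt were at 0. The part of these markers in the results below was not tested. In RNA measured per library and not per cell, fewer cells of a type and less RNA per cell cannot be told apart.

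Sgk1 was the member that fell after Son siRNA. Sgk1 is ENSMUSG00000019970 and spans bases 21882184 to 21999903 of chromosome 10 in GRCm38. Its level was 79.6, 97.3 and 77.8 CPM in Son siRNA libraries 1 to 3 and 370, 344 and 314 CPM in control libraries 1 to 3. All Son siRNA libraries were far below all controls, and the spread within either group was small beside that gap. The means were 84.9 ± 10.7 CPM in Son siRNA embryos and 343 ± 27.9 CPM in controls (SD, n = 3 each), so that Son siRNA embryos had 24.8% of the level in controls. On the log2 scale Sgk1 fell by 2.01 (SE 0.205), or 4.04-fold. The quasi-likelihood test of edgeR, adjusted over all genes after Benjamini and Hochberg, gave a p of 0.0122. No exonic base of Sgk1 is shared with another gene in GENCODE vM21, and 0% of its 100-base stretches occur in transcripts of other genes. Among the 7 members that passed the filter on low counts, Sgk1 was the 1 called at an adjusted p under 0.05, against 0.989% of the 17788 genes tested, or 0.899% with lower and 0.0899% with higher levels in Son siRNA libraries. DESeq2 also called 1 member, Sgk1, against 8.99% of the genes to which it gave an adjusted p.

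The call on Sgk1 by edgeR, but not the one by DESeq2, rested on having all 3 Son siRNA libraries. With Son siRNA library 1 left out, Sgk1 stood at a log2 value of -1.97 (edgeR adjusted p = 0.171). The values were -2.13 (adjusted p = 0.0709) with library 2 left out and -1.95 (adjusted p = 0.149) with library 3 left out. No gene in the whole table was called by edgeR in any of these fits, where 1786, 2348 and 1733 genes had an unadjusted p under 0.05. DESeq2's Wald test gave Sgk1 an adjusted p of 8.83e-09, 1.58e-13 and 8.70e-09 without the same libraries.

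**Figure D1:**
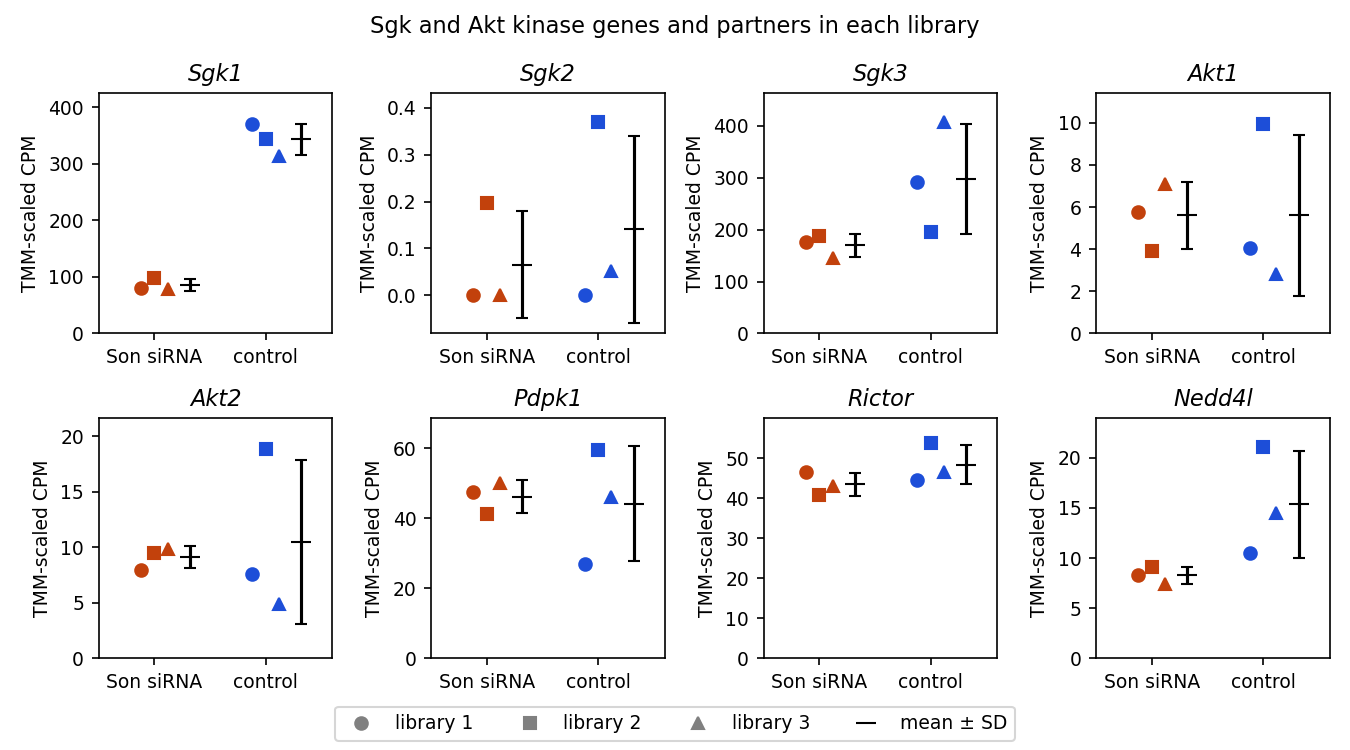
TMM-scaled CPM of the 8 genes in each library, with Son siRNA libraries on the left and control libraries on the right of each panel, each panel on its own linear axis. Black bars give the mean and SD of 3 libraries; Sgk1 ranges from 77.8 to 97.3 CPM in Son siRNA and from 314 to 370 CPM in control libraries.

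Sgk3, whose product carries a PX domain that binds the lipid of endosomes, was the other abundant SGK gene. Sgk3 (ENSMUSG00000025915, chromosome 1 from 9798107 to 9900845) had 176, 188 and 146 CPM in Son siRNA libraries 1 to 3 and 292, 195 and 407 CPM in control libraries 1 to 3. The groups did not overlap, although control library 2 lay only just above the highest Son siRNA library. For Sgk3 the fitted log2 value was -0.81 (SE 0.281, edgeR adjusted p = 0.218), and without control library 2 it was -1.04 (adjusted p = 0.0619). Without control library 3 it was -0.52 (adjusted p = 0.351).

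Sgk2, which is known mainly from liver, kidney and pancreas, was at or near 0. It had 0, 0.196 and 0 CPM in Son siRNA libraries 1 to 3 and 0, 0.370 and 0.0519 CPM in control libraries 1 to 3, and it did not pass the filter on low counts. These values correspond to 23 units in Son siRNA library 2, and to 42 and 5 units in control libraries 2 and 3. A count of 0 allows up to 12 units, or 0.0906 to 0.125 CPM depending on the library, if 4 units make 1 read pair and 3 pairs are the limit. That limit covers counting error only. No difference in Sgk2 was detectable at this depth.

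Akt1 and Akt2, the AKT genes most widely expressed in adult tissues, were far lower than Sgk1 and Sgk3 and did not pass the test. Akt1 (ENSMUSG00000001729, chromosome 12 from 112653821 to 112674884) had 5.78, 3.93 and 7.12 CPM in Son siRNA libraries 1 to 3 and 4.06, 9.95 and 2.80 CPM in control libraries 1 to 3. The 2 groups overlapped, and the highest and the lowest value were both controls. Its log2 fold change of 0.00071 (edgeR adjusted p = 0.9998) had an SE of 0.516. Changes larger than that SE either way are not excluded, and with 1 library left out the value ran from -0.32 to 0.71.

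Akt2 (ENSMUSG00000004056, chromosome 7 from 27591552 to 27640826) had 7.95, 9.48 and 9.81 CPM in Son siRNA libraries 1 to 3 and 7.63, 18.9 and 4.88 CPM in control libraries 1 to 3. As for Akt1, control library 2 was highest and control library 3 lowest. For Akt2 the fitted log2 value was -0.20 (SE 0.485, edgeR adjusted p = 0.909), and without control library 2 it was 0.54 (adjusted p = 0.444). Of the 100-base stretches of Akt2, 4.01% also occur in the pseudogene Akt2-ps.

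Both upstream activators had means close to each other in the 2 groups. Pdpk1 (ENSMUSG00000024122, chromosome 17 from 24073680 to 24150924) had 47.6, 41.1 and 50.04 CPM in Son siRNA libraries 1 to 3 and 26.9, 59.7 and 46.1 CPM in control libraries 1 to 3. The Son siRNA values lay inside the range of the controls. For Pdpk1 the fitted log2 value was 0.06 (SE 0.313, edgeR adjusted p = 0.956).

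Rictor (ENSMUSG00000050310, chromosome 15 from 6708379 to 6800401) had 46.6, 40.8 and 43.1 CPM in Son siRNA libraries 1 to 3 and 44.6, 53.9 and 46.6 CPM in control libraries 1 to 3. The groups overlapped, and all 6 libraries lay between 40.8 and 53.9 CPM. Its log2 fold change was -0.15 (SE 0.226, edgeR adjusted p = 0.834) with TMM scaling and 0.13 with total counts, a scaling that moved the median of all tested genes up by 0.29.

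Nedd4l, which encodes the substrate of SGK1 named above, had its 3 Son siRNA libraries below its 3 controls. Nedd4l (ENSMUSG00000024589, chromosome 18 from 64887705 to 65217828) had 8.27, 9.12 and 7.42 CPM in Son siRNA libraries 1 to 3 and 10.5, 21.1 and 14.5 CPM in control libraries 1 to 3. The lowest control, library 1, stood just above the Son siRNA libraries, which lay close together. The log2 fold change was -0.89 (SE 0.346, edgeR adjusted p = 0.272), and without control library 2 it was -0.59 (adjusted p = 0.340). Of its exonic bases, 1.57% overlap A330084C13Rik on the opposite strand.

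Across the list, 5 of the 7 tested members had a log2 fold change below 0 and 2 above 0, with a median of -0.20 against 0.02 over all genes tested. With total counts the split was 4 below and 3 above. Sgk1, Sgk3 and Nedd4l were the members whose groups did not overlap, all lower in Son siRNA libraries. Over all genes tested, 23.7% had groups that did not overlap and 11.6% did so with Son siRNA lower.

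**Figure D2:**
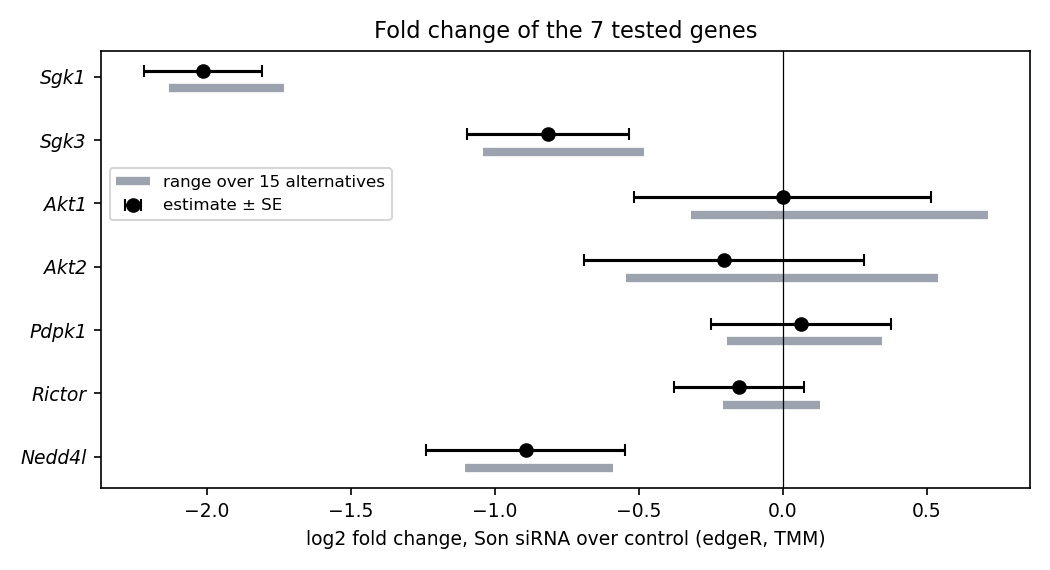
Log2 fold change of Son siRNA over control for the 7 tested members (points, with bars of 1 SE) and the range of the same value over 15 alternative settings (grey). Sgk1 stays between -2.13 and -1.73, while the ranges of Akt1, Akt2, Pdpk1 and Rictor cross 0.

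The order of the members by level was set by dividing CPM by gene length, since CPM alone favours long transcripts. Divided by the union of annotated exons, levels in Son siRNA embryos were 17.3 ± 2.19 CPM per kb for Sgk1, 11.9 ± 1.53 for Sgk3, 4.23 ± 0.422 for Pdpk1, 2.57 ± 0.170 for Rictor, 1.37 ± 0.390 for Akt1, 1.27 ± 0.139 for Akt2, 0.469 ± 0.0481 for Nedd4l and 0.0192 ± 0.0332 for Sgk2 (SD, n = 3). In controls they were 70.0 ± 5.70 CPM per kb for Sgk1, 20.8 ± 7.42 for Sgk3, 4.04 ± 1.51 for Pdpk1, 2.86 ± 0.288 for Rictor, 1.37 ± 0.931 for Akt1, 1.47 ± 1.04 for Akt2, 0.869 ± 0.304 for Nedd4l and 0.0412 ± 0.0587 for Sgk2. Sgk3 was above Pdpk1, and Rictor above Akt2, in 6 of 6 libraries. Pdpk1 was above Rictor in 3 of 3 Son siRNA libraries, by more than the spread there, and in 2 of 3 controls, where control library 1 went the other way. Akt2 was above Akt1 in 1 of 3 Son siRNA libraries and 3 of 3 controls, and their means differed by less than the SD of Akt1 in both groups. Nedd4l was below Akt1 in 5 of 6 libraries.

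The rank of Sgk1 against Sgk3 depended on the length used. Sgk3 has 14311 bases of annotated exon, but its longest protein-coding transcript has 3779 bases, while Sgk1 has 4903 and 3096 bases. Per kb of the longest protein-coding transcript, Sgk1 had 27.4 ± 3.47 CPM in Son siRNA and 111 ± 9.02 CPM in control libraries, and Sgk3 had 44.9 ± 5.78 CPM in Son siRNA and 78.9 ± 28.1 CPM in control libraries. On that length Sgk1 was below Sgk3 in each Son siRNA library and above it in 2 of 3 controls. On the exon union Sgk1 was the higher gene in 6 of 6 libraries.

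Relative to Sgk3, Sgk1 was lower in each Son siRNA library than in any control. A change of length scales this ratio by the same factor in every library, so it cannot alter that order. With the exon union, the ratio of Sgk1 to Sgk3 per kb was 1.32, 1.51 and 1.56 in Son siRNA libraries 1 to 3 and 3.70, 5.15 and 2.25 in control libraries 1 to 3. The 3 SGK genes together came to 29.2 ± 3.55 CPM per kb in Son siRNA embryos and 90.8 ± 6.19 CPM per kb in controls. Akt1 and Akt2 together came to 2.64 ± 0.424 CPM per kb in Son siRNA embryos and 2.83 ± 1.97 CPM per kb in controls. The summed SGK level was thus 8.37 to 14.4 times the summed AKT level in Son siRNA libraries and 16.5 to 67.7 times in controls, with the lowest control ratio in library 2, where AKT was highest. Per kb of the longest protein-coding transcript the groups overlapped, at 13.2 to 22.9 times in Son siRNA libraries and 20.8 to 98.9 times in controls.

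**Figure D3:**
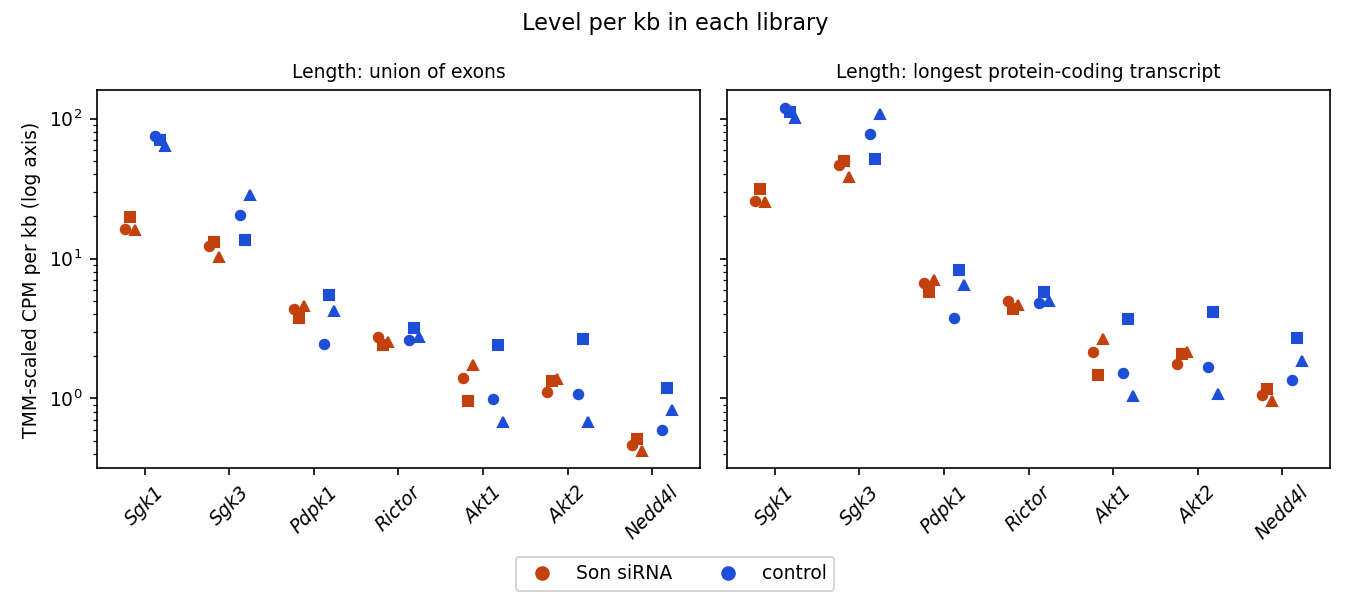
TMM-scaled CPM per kb (log axis) of 7 members in each library, divided by the union of exons (left) or by the longest protein-coding transcript (right); Sgk2 is left out because it was at 0 in 3 libraries. Son siRNA libraries stand left of control libraries for each gene, and Sgk1 is above Sgk3 in all 6 libraries on the left but in only 2 of 6 on the right.

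With each library left out in turn, Sgk1 moved less than Sgk3, Nedd4l, Akt1, Akt2 and Pdpk1. Its log2 fold change ran from -2.13 to -1.95, against -1.04 to -0.52 for Sgk3 and -1.10 to -0.59 for Nedd4l. Values for Akt1 ran from -0.32 to 0.71 and for Akt2 from -0.54 to 0.54, the upper end in each case without control library 2. Those for Pdpk1 ran from -0.19 to 0.34 and for Rictor from -0.21 to -0.065.

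**Figure D4:**
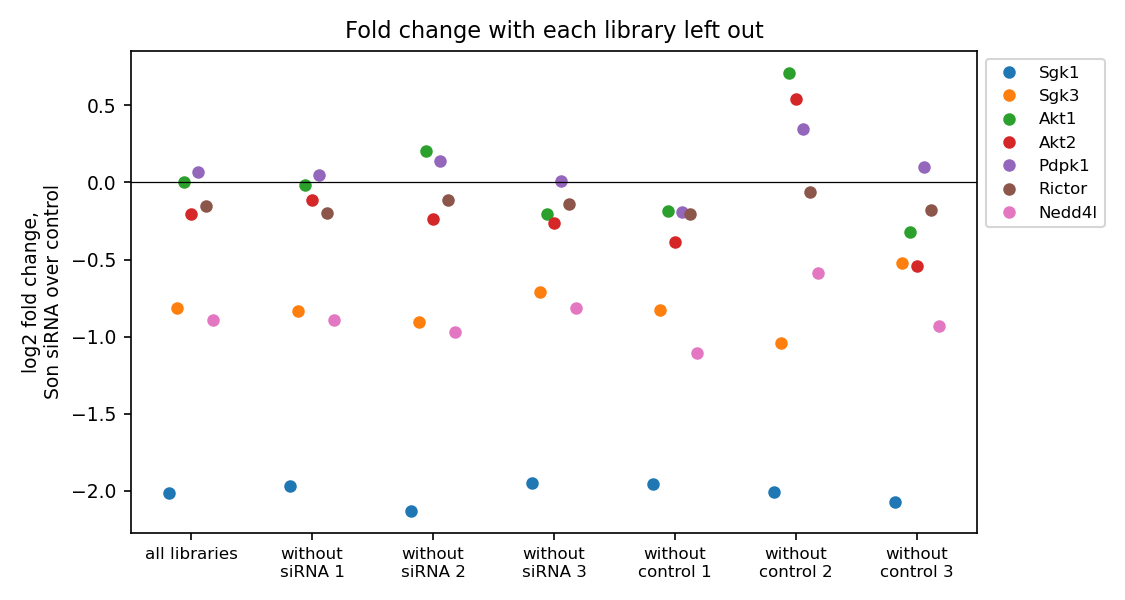
Log2 fold change of Son siRNA over control for the 7 tested members, with all 6 libraries and with each library left out. Sgk1 lies between -2.13 and -1.95 in every fit that leaves out a library, and Akt1 and Akt2 move to 0.71 and 0.54 without control library 2.

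Across the 6 libraries, Akt1 and Akt2 varied together (Pearson r of log2 CPM 0.89). So did Rictor and Nedd4l (0.82), Sgk1 and Nedd4l (0.80) and Sgk1 and Sgk3 (0.75), while Sgk3 and Akt1 ran opposite (-0.73). These 6 points share library depth, scaling and the difference between the groups. Of 8252 genes with a mean of at least 5 CPM in a group, 234 had a Pearson r over 0.95 with Sgk1 and 41 with Akt1. Closest to Sgk1 were Mad2l2, a subunit of translesion polymerase zeta (r = 0.999), Havcr1, a phosphatidylserine receptor (0.995), and Bhmt, the betaine-homocysteine methyltransferase gene (0.994). Bhmt had 90.0 ± 13.3 CPM in Son siRNA and 522 ± 137 CPM in control libraries, and Mad2l2 had 235 ± 18.1 CPM in Son siRNA and 475 ± 31.5 CPM in control libraries. Closest to Akt1 were the arrestin-domain gene Arrdc2 (0.991), the small GTPase modulator gene Sgsm3 (0.990) and the RAC exchange factor gene Tiam1 (0.988), which like Akt1 peaked in control library 2.

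Around the members, 172 further genes of the pathway were examined, of which 152 passed the filter on low counts. Grb2, the adaptor that links receptor tyrosine kinases to RAS and to GAB proteins, fell, and 0 genes rose. That is 0.658% of the pathway genes tested, against 0.989% over all genes. Of the 152 genes, 71 had a log2 fold change below 0 and 81 above 0, with a median of 0.05 against 0.02 over all genes. Groups did not overlap for 49 of the 152, or 32.2%, against 23.7% of all genes. At an unadjusted p under 0.05 there were 26 of the 152, against 14.7% of all genes. DESeq2 called 14, namely 9 lower and 5 higher, a share close to the 8.99% over all genes.

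Grb2 had 128, 136 and 116 CPM in Son siRNA libraries 1 to 3 and 354, 256 and 292 CPM in control libraries 1 to 3. Every Son siRNA library was below every control. For Grb2 the fitted log2 value was -1.25 (SE 0.209, edgeR adjusted p = 0.0385), but it was no longer past the threshold with total counts (-0.94, adjusted p = 0.0937), with no filter (0.0519) or without any 1 library other than control library 2 (adjusted p from 0.0660 to 0.289).

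Among the receptors, adaptors and PI3K subunits, the catalytic subunit gene Pik3ca had 43.1 ± 4.48 CPM in Son siRNA and 32.9 ± 2.70 CPM in control libraries (log2 0.39, edgeR adjusted p = 0.508). The regulatory subunit gene Pik3r1 had 31.1 ± 2.23 CPM in Son siRNA and 14.3 ± 9.99 CPM in control libraries (log2 1.12, adjusted p = 0.339). Of the 11 tested PI3K subunit genes 0 passed edgeR's test, 2 had an unadjusted p under 0.05 and DESeq2 called 1 lower. Of 15 tested receptors and adaptors, Grb2 was the 1 called, and the median was 0.01. For the 16 lipid and protein phosphatase genes, the median was -0.07 and 0 passed edgeR's test, with 2 at an unadjusted p under 0.05 and 1 lower by DESeq2.

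Partners of RICTOR in mTOR complex 2 had different values from each other. Mlst8, a subunit of both mTOR complexes, had 9.11, 6.20 and 9.71 CPM in Son siRNA libraries 1 to 3 and 20.2, 22.7 and 16.6 CPM in control libraries 1 to 3. The groups did not overlap, but edgeR's adjusted p was 0.106 (log2 -1.25, SE 0.316), DESeq2's was 0.00231, and 22.5% of its exonic bases overlap Bricd5 on the opposite strand. Mapkap1, which encodes the SIN1 subunit, had 12.2 ± 1.08 CPM in Son siRNA and 15.1 ± 0.735 CPM in control libraries (log2 -0.32, edgeR adjusted p = 0.670). Mtor itself had 15.04 ± 1.74 CPM in Son siRNA and 10.1 ± 6.67 CPM in control libraries (log2 0.57, adjusted p = 0.650). Of 15 tested genes of the mTOR complexes, their regulators and assembly factors, 0 passed edgeR's test and 2 had an unadjusted p under 0.05. DESeq2 called Mlst8 and Deptor lower. Deptor, which encodes an mTOR inhibitor, is named after its value was seen.

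Among the other AGC kinases, Rps6kb1, which encodes the S6 kinase, had 56.4 ± 10.3 CPM in Son siRNA and 64.5 ± 4.18 CPM in control libraries (log2 -0.19, adjusted p = 0.781). Of 19 tested AGC kinases other than the members, 0 passed edgeR's test, 3 had an unadjusted p under 0.05 and DESeq2 called 1 higher and 1 lower. The lower one was Rps6kb2, a second S6 kinase gene named after its value was seen.

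Tcl1, whose product binds AKT and raises its activity, had 17.8, 20.7 and 27.7 CPM in Son siRNA libraries 1 to 3 and 5.17, 17.1 and 8.96 CPM in control libraries 1 to 3. Its libraries did not overlap by group, and its log2 fold change was 1.08 (SE 0.444, edgeR adjusted p = 0.304). Of 14 tested genes listed with AKT coactivators and chaperones, 10 had a value above 0 (median 0.45) and 0 passed edgeR's test. The list is mixed and also holds genes that are not coactivators, among them Trib3. The values above 0 were those of Tcl1, its relatives Tcl1b1 to Tcl1b5, Mtcp1, Cdc37, Trib2 and Trib3. At an unadjusted p under 0.05 there were 5 of 14, against 14.7% of all genes. They were Tcl1, Tcl1b1, Tcl1b2 and Tcl1b4, all higher, and Trib1, which was lower. DESeq2 called 2 higher, Tcl1b1 and Tcl1b2, and 1 lower, Trib1. Apart from Tcl1, these genes are named after their values were seen. Tcl1 and the Tcl1b copies lie close together on chromosome 12. Reads of the Tcl1b copies may be split between near-identical genes, so the copies may not be separate observations.

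Downstream of both families, the substrates had a median of 0.04, with 0 of 20 tested genes past edgeR's test or called by DESeq2 and 1 at an unadjusted p under 0.05. Foxo1, a transcription factor gene whose product AKT and SGK keep out of the nucleus, had 19.8 ± 5.23 CPM in Son siRNA and 11.7 ± 3.56 CPM in control libraries (log2 0.77, adjusted p = 0.343), and its relative Foxo3 had 7.99 ± 0.881 CPM in Son siRNA and 4.85 ± 1.77 CPM in control libraries (log2 0.72, adjusted p = 0.442). Gsk3b, a kinase gene whose product AKT inhibits, had 132 ± 30.1 CPM in Son siRNA and 142 ± 20.1 CPM in control libraries (log2 -0.11, adjusted p = 0.905). Ndrg1, a substrate used to read SGK1 activity, had 1.03 ± 0.316 CPM in Son siRNA and 0.609 ± 0.529 CPM in control libraries (log2 0.76, adjusted p = 0.863). Transcripts do not show phosphorylation, which was not measured. For FOXO target genes the median was 0.10, with 0 of 17 past edgeR's test, 3 at an unadjusted p under 0.05 and 1 lower by DESeq2.

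In the NEDD4 family and transport list the median was 0.23, with 0 of 16 tested genes past edgeR's test, 4 at an unadjusted p under 0.05 and 1 lower by DESeq2. Nedd4 had 13.7 ± 2.91 CPM in Son siRNA and 13.1 ± 4.07 CPM in control libraries (log2 0.07, adjusted p = 0.960). The epithelial sodium channel genes Scnn1a, Scnn1b and Scnn1g, whose products are the best known targets of NEDD4-2 in kidney, were at 0 in all 6 libraries.

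Genes tied to corticoid and osmotic control of Sgk1 had a median of 0.62 over the 9 tested, with 0 past edgeR's test and 2 at an unadjusted p under 0.05. Nr3c1, the glucocorticoid receptor gene, had 3.93, 3.77 and 4.61 CPM in Son siRNA libraries 1 to 3 and 1.23, 3.50 and 3.91 CPM in control libraries 1 to 3 (log2 0.51, adjusted p = 0.711). The 2 of 9 tested genes with groups apart were Fkbp5 and Tsc22d3, known glucocorticoid targets, both higher in Son siRNA libraries. Groups were apart for 23.7% of all genes tested, and for 12.1% with Son siRNA higher. Other known targets in the list had overlapping groups, with log2 values of -0.73 for Klf9 (adjusted p = 0.340), -0.30 for Dusp1 (adjusted p = 0.893) and 0.62 for Per1 (adjusted p = 0.784). These 5 genes are named after their values were seen. Fkbp5 had 39.9 ± 3.73 CPM in Son siRNA and 13.0 ± 9.29 CPM in control libraries (log2 1.62, edgeR adjusted p = 0.153, DESeq2 adjusted p = 0.00874). Tsc22d3 had 1.16 ± 0.956 CPM in Son siRNA and 0.143 ± 0.104 CPM in control libraries (log2 3.02, edgeR adjusted p = 0.221, DESeq2 adjusted p = 0.0447).

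**Figure D5:**
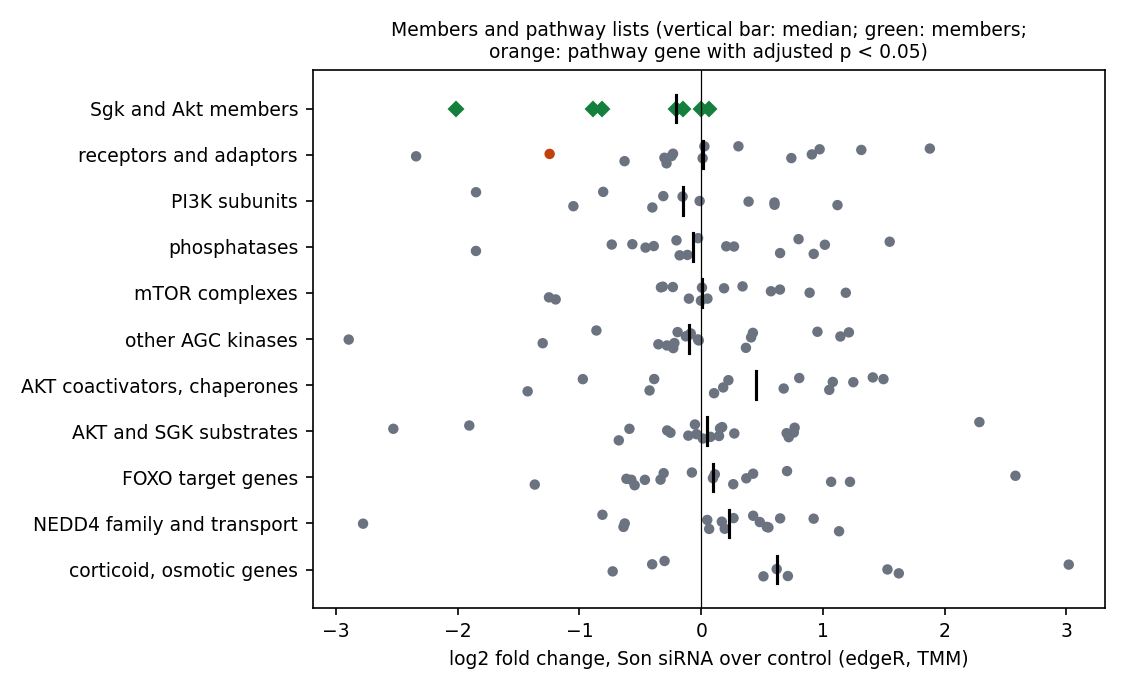
Log2 fold change of Son siRNA over control for the 7 tested members (green) and for the tested genes of 10 pathway lists (grey, orange where edgeR's adjusted p was under 0.05), 1 point per gene, with the median of each list as a vertical bar. Grb2 at -1.25 is the orange point, and list medians run from -0.15 for PI3K subunits to 0.62 for corticoid and osmotic genes.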

How the data were processed

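RNA of 3 Son siRNA and 3 control libraries was measured; the sample titles give the group and number of each. HISAT2 2.0.5, StringTie 1.3.3b and the GRCm38 build were used, per the submitters' processing notes; the annotation release is not given in the sources used here. Each library has a table, deposited by the authors, of whole-number estimated counts for 46072 genes, not normalized, so no rounding was needed. The unit is not stated to be 1 read: 4 units were taken as 1 read pair, an assumption, which enters only the limit for a count of 0 and an alternative fit. By Ensembl identifier 45137 genes matched the GENCODE vM21 annotation, source of coordinates (GRCm38) and lengths; promoter windows come from RefSeq (GRCm38.p6).

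The whole table was fitted with edgeR 4.0.16 in R 4.3.3: genes kept by filterByExpr (17788), TMM factors, then glmQLFit and glmQLFTest with no block, Son siRNA over control. P-values were adjusted after Benjamini and Hochberg, with a threshold of 0.05. SE values were derived from the test statistic. CPM values are TMM-scaled. The script was tested on simulated data. Alternatives were other scalings and filters, counts divided by 4, a replicate block, DESeq2 1.42.0, limma 3.58.1 with sample weights per group, each library left out, and, chosen after seeing the data, transcript length in place of exon length.

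Named genes were the members, Son, pathway genes past the threshold, fixed relatives, some of which are not reported here, and the 3 genes closest to Sgk1 and to Akt1, with pseudogenes, clone names and predicted genes left out; exceptions are marked where they occur. Members and lists were chosen with earlier results of these data known. No set test was run.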

Additional observations from a re-analysis of the deposited data

How the results depend on the processing

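Sgk1 kept its direction under all 15 alternatives (log2 -2.13 to -1.73) and its call under 11; Sgk3 and Nedd4l kept their direction under all 15. With the replicate block 0 members, 0 pathway genes and 0 of all genes were called (Sgk1 log2 -2.02, adjusted p = 0.0620), Akt2 was at 0.025, Arrdc2 at 0.11, Sgsm3 at 0.030 and Tiam1 at 0.011, against values below 0 without it. Deviations from the group means correlated by -0.065, -0.073 and 0.050 between same-numbered libraries. With 3 libraries per group and no comparison with differently numbered ones, these values cannot decide whether the numbers pair the libraries.

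Against 160 lower and 16 higher genes, total counts called 35 and 7, no filter 91 and 9, at least 50 units in 3 libraries 245 and 43, counts divided by 4 279 and 51, DESeq2 850 and 373, and limma 331 and 43. Leaving out 1 library, edgeR gave 0 to 231 lower and 0 to 84 higher genes, 0 or 1 members and 0 to 4 pathway genes. DESeq2 gave 491 to 1293 lower and 97 to 1205 higher genes, with 2 members without control library 1 or control library 2 and 1 member without any of the others. The 1 pathway gene became 0 with total counts or no filter, 14 with DESeq2 and 4 with limma. With total counts Rictor (0.13), Rps6kb1 (0.080), Gsk3b (0.20), Arrdc2 (0.20), Sgsm3 (0.18) and Tiam1 (0.17) turned above 0; Arrdc2 did so with upper quartile (0.023) and limma (0.068), and Sgsm3 with limma (0.0066). Leaving out 1 library turned Akt1 (-0.32 to 0.71), Akt2 (-0.54 to 0.54), Pdpk1 (-0.19 to 0.34), Gsk3b (-0.24 to 0.072), Nedd4 (-0.16 to 0.26), Arrdc2 (-0.31 to 0.58), Sgsm3 (-0.32 to 0.40) and Tiam1 (-0.30 to 0.36) through 0; the cause was not tested. Per kb of the longest protein-coding transcript in place of the exon union, the mean log2 ratio of Sgk1 to Sgk3 was -0.71 in place of 0.55 in Son siRNA libraries and 0.55 in place of 1.81 in controls, since the Sgk3 length shrinks most.

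Low counts limit Sgk2, Ndrg1 and Tsc22d3. The spread of the controls, with library 2 highest for Akt1, Akt2 and Pdpk1, limits the precision for those genes.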
